A study of Homo sapiens with 4 samples.

Results

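The 8 genes described here are 5 members of the Schlafen family (SLFN5, SLFN11, SLFN12, SLFN12L and SLFN13), the neighbouring paralogs SAMD9 and SAMD9L, and SAMHD1, all grouped as factors that restrict viruses or growth inside the cell. They were picked by gene symbol from the 56638 symbols of the count table, by a rule that uses no measured value. The choice of these 8 genes, and of the gene lists below, was however made with earlier results of these data known. All 8 were among the 14018 genes with enough reads to be tested. RNA of the leukaemia cell line MV4;11, which derives from human acute myeloid leukaemia, had been sequenced in a group of 2 libraries exposed for 24 h to CU-T12-9 at 1 µg/mL and a group of 2 libraries exposed to vehicle. CU-T12-9 is a synthetic compound that activates Toll-like receptors TLR1 and TLR2, which act as a heterodimer. The vehicle is DMSO in the sample labels and PBS in the treatment protocol. The line carries a KMT2A fusion and an activated FLT3 in both groups. Whether the 2 libraries of each group derive from different cultures is not stated, and the spread behind every p-value may therefore be technical.

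Schlafen proteins share a nuclease-like core that binds or cleaves transfer RNA, and several of them are induced by interferon and lower the synthesis of viral proteins. SAMD9 and SAMD9L are large cytoplasmic proteins that block poxvirus replication and, when overactive, inhibit the growth of blood progenitors. SAMHD1 hydrolyses deoxynucleoside triphosphates, which starves reverse transcription in non-dividing myeloid cells, and it also breaks down the active triphosphate of cytarabine, the main drug of acute myeloid leukaemia.

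The CU-T12-9 libraries held 23201117 and 23087102 reads and the DMSO libraries 25867733 and 23892934 reads. Levels are given as CPM, counts scaled to a common TMM-normalized library size, and 1 read was worth between 0.0384 and 0.0442 CPM. Of the listed myeloid genes, CD33 had 131.5 and 117.7 CPM in CU-T12-9 and 166.3 and 164.7 CPM in DMSO, and SPI1, FLT3 and LYZ were above it in every library. Not all such genes were high: MPO, the granule peroxidase, had 0.214 and 0.221 CPM in CU-T12-9 and 5.76 and 6.47 CPM in DMSO, and ITGAM, a myeloid integrin chain, had 11.6 and 11.2 CPM in CU-T12-9 and 2.84 and 2.59 CPM in DMSO. All 10 listed myeloid genes were tested, of which 6 rose and 4 fell. The erythroid genes HBB and HBA1 and the platelet genes PPBP and PF4 had no read in any library, and the T cell genes CD3D, CD3E, CD3G and TRAC had at most 2. The summed level of 3 B cell genes was 0.470 to 0.530 CPM in CU-T12-9 and 0.585 to 0.998 CPM in DMSO, and that of 3 fibroblast genes 0.398 to 0.770 CPM in CU-T12-9 and 0.154 to 0.418 CPM in DMSO. Of the 3 listed NK cell genes, NKG7 was higher in CU-T12-9, NCAM1 was lower and KLRD1 was not called, with a summed level of 32.4 to 34.1 CPM in CU-T12-9 and 21.0 to 21.6 CPM in DMSO. Of the 3 epithelial genes EPCAM and KRT19 had no read and KRT18 was lower in CU-T12-9, with a summed level of 1.03 to 1.15 CPM in CU-T12-9 and 2.38 to 2.55 CPM in DMSO. The part of these in the results on the 8 genes was not tested. In bulk RNA, fewer cells of a kind and less RNA per cell cannot be told apart.

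The 8 genes did not move as a block. SLFN5, SAMD9L, SAMD9 and SAMHD1 were higher in CU-T12-9, SLFN11 and SLFN13 were lower, and SLFN12 and SLFN12L were not called (edgeR quasi-likelihood test, Benjamini-Hochberg adjusted p under 0.05 over all 14018 genes). That is 6 of 8 genes called, beside 65.2% of all genes tested, so the share called is near the background. By direction, 4 of 8 were higher, beside 32.0% of all genes, and 2 of 8 lower, beside 33.2%. The libraries of the groups did not overlap in 7 of the 8 genes, beside 82.3% of all genes. SLFN5, SAMD9L and SLFN11 lay outside the range from -1.47 to 1.83 on the log2 scale that held the central part of all genes, between the 5th and 95th percentiles, while the other 5 lay inside it. Every gene called higher or lower in this text passed that same edgeR test. A called change of at least 2-fold was found in 2 of 8 genes upward, SLFN5 and SAMD9L, beside 11.0% of all genes, and in 2 of 8 downward, SLFN11 and SLFN13, beside 9.29%.

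**Figure D1:**
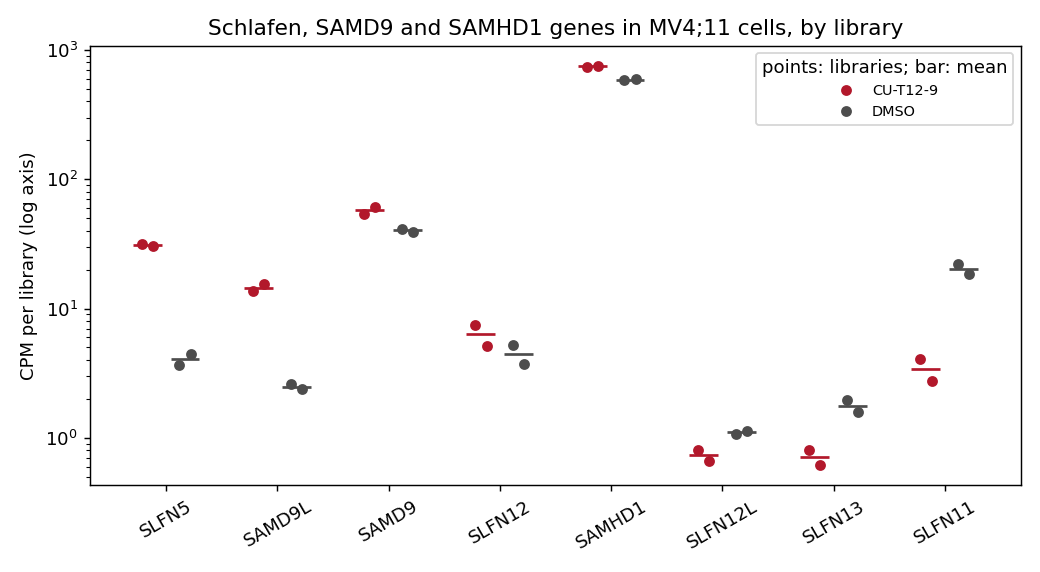
CPM of each of the 8 genes in each library on a log axis, with CU-T12-9 libraries in red and DMSO libraries in grey and bars for the mean of 2 libraries. SLFN5 at 31.6 and 30.5 CPM in CU-T12-9 stands far above 3.65 and 4.47 CPM in DMSO, SLFN11 shows the opposite order, and the SLFN12 libraries overlap.

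**Figure D2:**
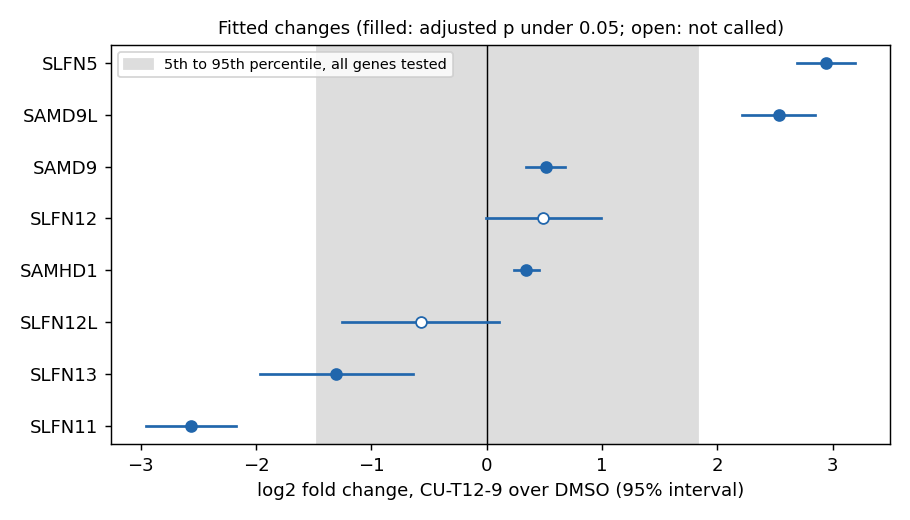
Fitted log2 fold change of each gene, CU-T12-9 over DMSO, with its 95% interval; filled points passed the test and the grey band spans the 5th to 95th percentile of all 14018 genes. SLFN5 at 2.94, SAMD9L at 2.53 and SLFN11 at -2.56 lie outside the band.

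Among the Schlafen genes, the 2 that changed most went in opposite directions. SLFN5, a nuclear member of the long subgroup that represses herpesvirus transcription and is induced by interferon, had 31.6 and 30.5 CPM in the CU-T12-9 libraries, against 3.65 and 4.47 CPM in the DMSO libraries. These levels rest on 740 and 691 reads in CU-T12-9 and on 95 and 107 reads in DMSO. Both CU-T12-9 libraries were well above both DMSO libraries, and the rise was 7.68-fold (log2 fold change 2.94, SE 0.11, edgeR adjusted p = 3.94e-08). In the order of all tested genes by log2 fold change, SLFN5 stood at place 357 from the largest rise.

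SLFN11, also of the long subgroup, cleaves certain transfer RNAs, limits human immunodeficiency virus protein synthesis and blocks stressed replication forks, which makes cells sensitive to drugs that damage DNA. It had 4.11 and 2.74 CPM in the CU-T12-9 libraries, against 22.1 and 18.4 CPM in the DMSO libraries, from 96 and 62 reads in CU-T12-9 and 575 and 441 reads in DMSO. The highest CU-T12-9 library lay far below the lowest DMSO library. The fall was 5.90-fold (log2 fold change -2.56, SE 0.17, edgeR adjusted p = 1.55e-06), place 106 from the largest fall. Within each library the ratio of SLFN5 to SLFN11 reads, which does not depend on the scaling between libraries, was 7.71 and 11.2 in CU-T12-9 and 0.165 and 0.243 in DMSO. With 2 libraries a group, an exact permutation test of this ratio cannot reach 0.05, and none was made.

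The promoter window of SLFN11 is shown because this gene was the one strong fall among the 8. The window is RefSeq sequence of GRCh38.p14 at chr17:35373572-35373871, minus strand, from 250 bases before to 50 bases after the annotated start. Capitals mark the only match to the motifs searched, TTCCCGGAA, which has the letters TTCNNNGAA of a gamma-activated site.
SLFN11: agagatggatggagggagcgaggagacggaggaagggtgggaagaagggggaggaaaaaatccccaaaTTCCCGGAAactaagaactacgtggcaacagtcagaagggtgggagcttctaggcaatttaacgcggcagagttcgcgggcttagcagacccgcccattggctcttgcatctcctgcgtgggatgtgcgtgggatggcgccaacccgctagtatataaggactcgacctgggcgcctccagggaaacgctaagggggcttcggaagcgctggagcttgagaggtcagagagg
Windows were in the table for 6 of the 8 genes, and SLFN5 and SLFN13 had none. The letters TTCNNNGAA stood in 7.66% of all 35116 windows. Among the 6 windows they also stood at 2 places in that of SLFN12L, which was not called. This window holds 18 CpG dinucleotides, against a median of 14 over all windows.

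SLFN13, an endoribonuclease that cleaves transfer and ribosomal RNA and restricts human immunodeficiency virus, was a low-level gene that fell. It had 0.813 and 0.619 CPM in CU-T12-9, from 19 and 14 reads, against 1.96 and 1.59 CPM in DMSO, from 51 and 38 reads. The groups did not overlap (log2 fold change -1.30, SE 0.29, edgeR adjusted p = 0.00351). SLFN13 is a close copy of SLFN11: 617 of the 50-base words in its GENCODE 29 transcripts, or 6.50% of them, also occur in SLFN11 transcripts, where they make up 9.69% of the words. No source used here says how reads from such stretches were assigned, and their part in the levels of either gene and in the fall of SLFN13 was not tested. The ratio of SLFN11 to SLFN13 reads was 5.05 and 4.43 in CU-T12-9 and 11.3 and 11.6 in DMSO, with the lower ratios in CU-T12-9. The difference between the falls was not tested.

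SLFN12 and SLFN12L were the Schlafen genes without a call. SLFN12 is a ribonuclease that small molecules can activate by gluing it to the phosphodiesterase PDE3A. It had 7.48 and 5.17 CPM in CU-T12-9, against 5.26 and 3.72 CPM in DMSO, and the groups overlapped. The log2 fold change was 0.49 with a 95% interval of -0.01 to 0.99 (edgeR adjusted p = 0.0774). The call depended on single libraries: without the second CU-T12-9 library the log2 fold change was 0.73 (edgeR adjusted p = 1.16e-05), and without the first DMSO library 0.76 (edgeR adjusted p = 0.00563). PDE3A had no read in CU-T12-9 and 0 and 2 reads in DMSO. Its relative PDE3B had 142 ± 0.89 CPM in CU-T12-9 and 155 ± 4.51 CPM in DMSO (SD, n = 2 each) and was not called (log2 fold change -0.13, edgeR adjusted p = 0.0525).

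SLFN12L had 0.813 and 0.663 CPM in CU-T12-9, against 1.07 and 1.13 CPM in DMSO. The groups did not overlap, but the gene was not called on 19 and 15 reads in CU-T12-9 and 28 and 27 reads in DMSO (log2 fold change -0.57, 95% interval -1.25 to 0.11, edgeR adjusted p = 0.124). The antisense gene AC015911.5 covers 7.69% of its exons, and without a stated strand setting reads of the pair cannot be told apart. Outside the 8 genes, SLFN14 had no read in any library and SLFNL1 had 2 and 5 reads in CU-T12-9 and 2 and 4 in DMSO, too few to be tested.

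Taken over the 5 Schlafen genes, the leading member by number of reads, which also depends on gene length, differed between the groups. The summed level was 44.9 and 39.7 CPM in CU-T12-9, against 34.0 and 29.3 CPM in DMSO. SLFN5 made up 70.5% of the Schlafen reads (95% Wilson interval 67.7 to 73.2) and 76.9% (74.0 to 79.5) in the CU-T12-9 libraries, against 10.7% (8.85 to 12.9) and 15.2% (12.8 to 18.1) in the DMSO libraries. SLFN11 made up 9.15% (7.55 to 11.1) and 6.90% (5.42 to 8.74) in the CU-T12-9 libraries, against 64.9% (61.7 to 68.0) and 62.8% (59.2 to 66.3) in the DMSO libraries. SLFN12 held between 12.7% and 16.7% in all 4 libraries. These intervals reflect counting error within a library alone and leave out the spread between libraries. PCR copies of a molecule are not told from separate molecules, so the intervals may be too narrow even for that.

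**Figure D3:**
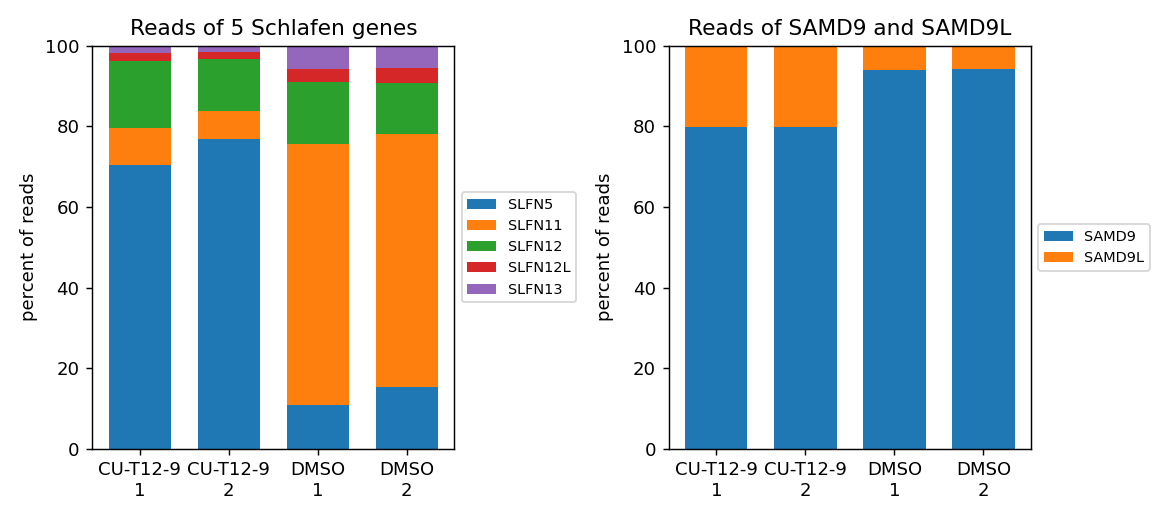
Stacked bars give each gene's percent of the reads of the 5 Schlafen genes (left) and of SAMD9 plus SAMD9L (right) in each library. SLFN5 holds 70.5% and 76.9% of Schlafen reads in CU-T12-9, SLFN11 holds 64.9% and 62.8% in DMSO, and SAMD9L holds 20.2% and 20.2% of its pair in CU-T12-9 against 5.98% and 5.69% in DMSO.

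SAMD9 and SAMD9L lie side by side on chromosome 7 and encode paralogous inhibitors of translation, and both rose, by very different amounts. The promoter windows of the pair are shown so that they can be compared. Both are RefSeq sequence of GRCh38.p14 on the minus strand, SAMD9 at chr7:93117930-93118229 and SAMD9L at chr7:93148336-93148635. Capitals mark AAACTGAAAC, one of 3 runs of 10 bases that the windows share, no longer run being shared. It was picked out after the sequences had been seen, because it overlaps the match GAAACTGAA of the SAMD9 window to the core GAAANNGAA of an interferon-stimulated response element.
SAMD9: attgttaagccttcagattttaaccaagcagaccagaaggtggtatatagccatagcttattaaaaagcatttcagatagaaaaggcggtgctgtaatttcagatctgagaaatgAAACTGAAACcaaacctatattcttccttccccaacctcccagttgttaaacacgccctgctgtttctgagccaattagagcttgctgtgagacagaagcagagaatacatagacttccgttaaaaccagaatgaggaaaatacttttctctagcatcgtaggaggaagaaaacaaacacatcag
SAMD9L: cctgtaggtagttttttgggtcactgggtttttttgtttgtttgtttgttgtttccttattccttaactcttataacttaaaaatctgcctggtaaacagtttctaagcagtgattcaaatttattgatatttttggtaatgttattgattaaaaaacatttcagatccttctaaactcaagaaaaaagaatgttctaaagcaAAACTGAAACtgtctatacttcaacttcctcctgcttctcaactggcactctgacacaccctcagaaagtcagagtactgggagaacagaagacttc
The run begins 135 bases before the start in SAMD9 and 47 bases before it in SAMD9L, and it occurs on either strand in 55 of the 35116 windows, or 0.157%. The other shared runs are rarer, with ATTTCAGATC in 22 windows (0.063%) and CATTTCAGAT in 33 (0.094%). How often any pair of windows shares a run of 10 bases was not tested. The core GAAANNGAA, searched on both strands, stood in 8.11% of windows, among them those of SAMD9 and SLFN12L and not that of SAMD9L. The NF-kB site (5.91% of windows) was matched in none of the 6 windows, and the ETS core CAGGAAGT or CCGGAAGT (7.02%) in that of SLFN12. A match is a string of letters, and no match says only that the letters are not in this window.

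SAMD9L had 13.6 and 15.4 CPM in the CU-T12-9 libraries, from 318 and 348 reads, against 2.61 and 2.38 CPM in the DMSO libraries, from 68 and 57 reads. Both CU-T12-9 libraries were far above both DMSO libraries, and the rise was 5.79-fold (log2 fold change 2.53, SE 0.14, edgeR adjusted p = 4.15e-07). SAMD9, with the more reads of the pair, had 53.8 and 60.9 CPM in CU-T12-9, against 41.1 and 39.4 CPM in DMSO. The groups did not overlap, but the rise was only 1.43-fold (log2 fold change 0.51, SE 0.07, edgeR adjusted p = 2.51e-04), and it did not pass a test against a fold of 2. The ratio of SAMD9L to SAMD9 reads was 0.253 and 0.252 in CU-T12-9 and 0.0636 and 0.0604 in DMSO. SAMD9L thus made up 20.2% (18.3 to 22.2) and 20.2% (18.3 to 22.1) of the reads of the pair in the CU-T12-9 libraries, against 5.98% (4.74 to 7.51) and 5.69% (4.42 to 7.31) in the DMSO libraries, with 95% Wilson intervals. No 50-base word of either gene occurs in transcripts of another gene.

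SAMHD1 had the most reads of the 8 genes in every library and rose by a small amount. It had 743 and 753 CPM in the CU-T12-9 libraries, from 17374 and 17036 reads, against 583 and 596 CPM in the DMSO libraries, from 15175 and 14277 reads. The libraries of each group lay close together and the groups did not overlap. The rise was 1.27-fold (log2 fold change 0.34, SE 0.05, edgeR adjusted p = 1.78e-04), and it did not pass a test against a fold of 2. TLDC2 overlaps 10.3% of the SAMHD1 exons on the opposite strand, and had 2 and 8 reads in CU-T12-9 and 7 and 4 in DMSO. Without a stated strand setting, reads from the overlap cannot be told apart. Of the 50-base words in SAMHD1 transcripts, 1130, or 9.54%, also occur on either strand in transcripts of other genes, TLDC2 among them. The part of such reads in the level of SAMHD1 was not tested.

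Levels of different genes can be compared only per length, here as CPM per kilobase of the GENCODE 29 exons of a gene, which need not be the annotation the authors counted on. In CU-T12-9 the order was SAMHD1 at 66.4 ± 0.63, SAMD9 at 8.37 ± 0.73, SLFN5 at 2.90 ± 0.07, SAMD9L at 2.03 ± 0.18, SLFN12 at 1.78 ± 0.46, SLFN11 at 0.572 ± 0.16, SLFN12L at 0.153 ± 0.02 and SLFN13 at 0.0767 ± 0.01 (SD, n = 2 each). In DMSO it was SAMHD1 at 52.3 ± 0.86, SAMD9 at 5.87 ± 0.17, SLFN11 at 3.38 ± 0.43, SLFN12 at 1.26 ± 0.31, SLFN5 at 0.379 ± 0.05, SAMD9L at 0.350 ± 0.02, SLFN12L at 0.229 ± 0.01 and SLFN13 at 0.190 ± 0.03 (SD, n = 2 each). SAMD9L and SLFN12 overlapped between libraries in CU-T12-9, as did SLFN5 and SAMD9L in DMSO. SLFN11 was thus the leading Schlafen gene per length in DMSO and SLFN5 in CU-T12-9.

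Interferon signalling genes, which drive several of these 8 genes in other cells, were mostly higher. Of 23 listed genes 19 were tested, of which 14 rose, 2 fell and 3 were not called, with a median log2 fold change of 0.92. Over all genes 32.0% were higher and 33.2% lower, with a median of 0.00. STAT2 had 164 ± 17.7 CPM in CU-T12-9 and 44.2 ± 3.79 CPM in DMSO (SD, n = 2 each). STAT2 is a transcription factor that joins IRF9 in the complex activated by type I interferon, and IRF9 itself rose 2.99-fold. USP18, a feedback inhibitor of that receptor, rose 3.65-fold and IFNGR2, a chain of the interferon gamma receptor, 3.34-fold. IRF1, another inducer of such genes, was not called at 28.7 ± 0.82 CPM in CU-T12-9 and 29.9 ± 0.17 CPM in DMSO (SD, n = 2 each, log2 fold change -0.06). The listed ligand genes were nearly unread at 24 h, and other interferon genes were not listed. IFNB1 had 2 and 0 reads and IFNL1 1 and 0 reads in CU-T12-9, and both had none in DMSO. IFNA1 and IFNG had none in either group.

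Other restriction factors also rose for the most part, 27 of 32 tested (34 listed), while 2 fell and 3 were not called, with a median log2 fold change of 1.29, beside the same 32.0% of all genes higher and 33.2% lower. The largest rises were in OAS3, a sensor of double-stranded RNA, at 5.87 on the log2 scale, the guanylate-binding proteins GBP5 at 4.24 and GBP2 at 3.93, and the dynamin-like MX1 at 3.87. SLFN5 at 2.94 and SAMD9L at 2.53 lay below each of these largest rises but above the list median. SAMD9 and SAMHD1 lay below that median. The cytidine deaminase gene APOBEC3B fell 2.66-fold and the tetherin gene BST2 1.38-fold, each by less than SLFN11.

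Genes around SAMHD1 function mostly fell. Of 18 genes of nucleotide supply and cytarabine handling, 13 fell, 2 rose and 3 were not called, with a median log2 fold change of -1.49. Over all genes, 33.2% were lower and 32.0% higher. RRM2, the ribonucleotide reductase subunit that feeds the pool SAMHD1 drains, had 68.7 ± 0.58 CPM in CU-T12-9 and 398 ± 5.64 CPM in DMSO (SD, n = 2 each, log2 fold change -2.53). The thymidine kinase gene TK1 and the thymidylate synthase gene TYMS each fell by 2.31 on the log2 scale. SLC29A1, which imports cytarabine, fell 3.50-fold and DCK, which makes its first phosphate, 1.45-fold.

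Of 14 genes tied to SAMHD1 phosphorylation and cell cycle control, 8 fell, 3 rose and 3 were not called, with a median of -0.22, beside 33.2% of all genes lower and 32.0% higher. Cyclin A2 with CDK1 or CDK2 phosphorylates SAMHD1 in cycling cells, which switches off its antiviral activity. CCNA2 fell 4.31-fold, CDK1 5.41-fold and CDK2 3.65-fold, and the cyclin gene CCNE2 fell 4.97-fold, while CDKN1A, an inhibitor of these kinases, rose 2.24-fold. RNA counts do not measure phosphorylation of the protein.

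Of 15 replication stress partners of SLFN11 and targets of the drugs it sensitises to, 11 fell, 1 rose and 3 were not called, with a median of -0.65, against 33.2% lower and 32.0% higher among all genes. The checkpoint kinase CHEK1 fell 5.55-fold, near the fall of SLFN11 itself. The topoisomerase TOP2A fell 3.67-fold, the licensing factor CDT1 3.35-fold and RPA1, a subunit of the single-strand binding complex that recruits SLFN11, 1.85-fold. DDB1, an adaptor of the ligase through which SLFN11 promotes CDT1 breakdown, rose 2.15-fold.

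The list of known SLFN11 regulators holds both activators and silencers, and its genes moved in both directions. FLI1, an ETS factor that activates SLFN11 in other tumours, had 126 ± 0.61 CPM in CU-T12-9 and 127 ± 0.15 CPM in DMSO and was not called (SD, n = 2 each, log2 fold change -0.01). The ETS factors ETS1 and SPI1 rose 1.60-fold and 1.54-fold. EZH2, which silences SLFN11 in small cell lung cancer, fell 2.32-fold and the DNA methyltransferase DNMT1 1.65-fold. In all, 7 of 10 fell, 2 rose and 1 was not called, with a median of -0.28, where 33.2% of all genes were lower and 32.0% higher. These counts and the median pool activators with silencers, and so have no single direction with respect to SLFN11.

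**Figure D4:**
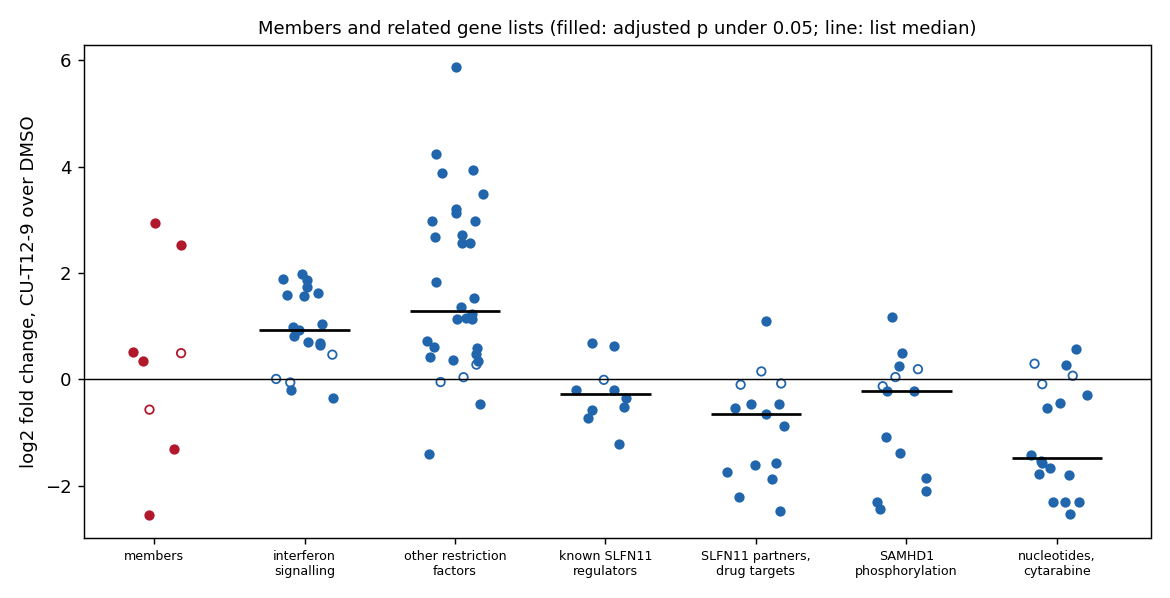
Log2 fold change of every tested gene of 6 related lists beside the 8 members (red), with filled points past the test and a line at each list's median. Other restriction factors have a median of 1.29 and nucleotide and cytarabine genes one of -1.49, while the members run from -2.56 for SLFN11 to 2.94 for SLFN5.

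The Schlafen genes form a cluster on chromosome 17, where SLFN5, SLFN11, SLFN12, SLFN13 and SLFN12L follow each other in RefSeq order, so that the largest rise and the largest fall of the cluster were in adjacent genes. Of the 10 nearest tested protein-coding neighbours of the cluster, 4 rose, 4 fell and 2 were not called, which is near the 32.0% of all genes higher and 33.2% lower. NLE1, a ribosome biogenesis factor and the tested neighbour nearest to SLFN5, fell by 0.94 on the log2 scale. RFFL, a ubiquitin ligase, rose by 1.49, and the chemokine gene CCL5 by 3.33, more than SLFN5.

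Around SAMD9 and SAMD9L, 4 of 10 tested neighbours rose, 2 fell and 4 were not called, beside 32.0% of all genes higher and 33.2% lower. The cell cycle kinase gene CDK6, the tested neighbour nearest to SAMD9, rose by 0.24 on the log2 scale. VPS50, the tested neighbour nearest to SAMD9L and listed in the table as CCDC132, was not called at 0.03. GNG11, a G protein subunit, rose by 1.95 from low levels, with 1.72 ± 0.32 CPM in CU-T12-9 and 0.448 ± 0.25 CPM in DMSO (SD, n = 2 each). Around SAMHD1, 3 of 10 rose, 4 fell and 3 were not called, again near those shares of all genes. RBL1, a pocket protein of the retinoblastoma family, was the nearest tested neighbour on one side of SAMHD1 and fell by 1.58 on the log2 scale. SRC, a tyrosine kinase gene further along, rose by 3.37.

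**Figure D5:**
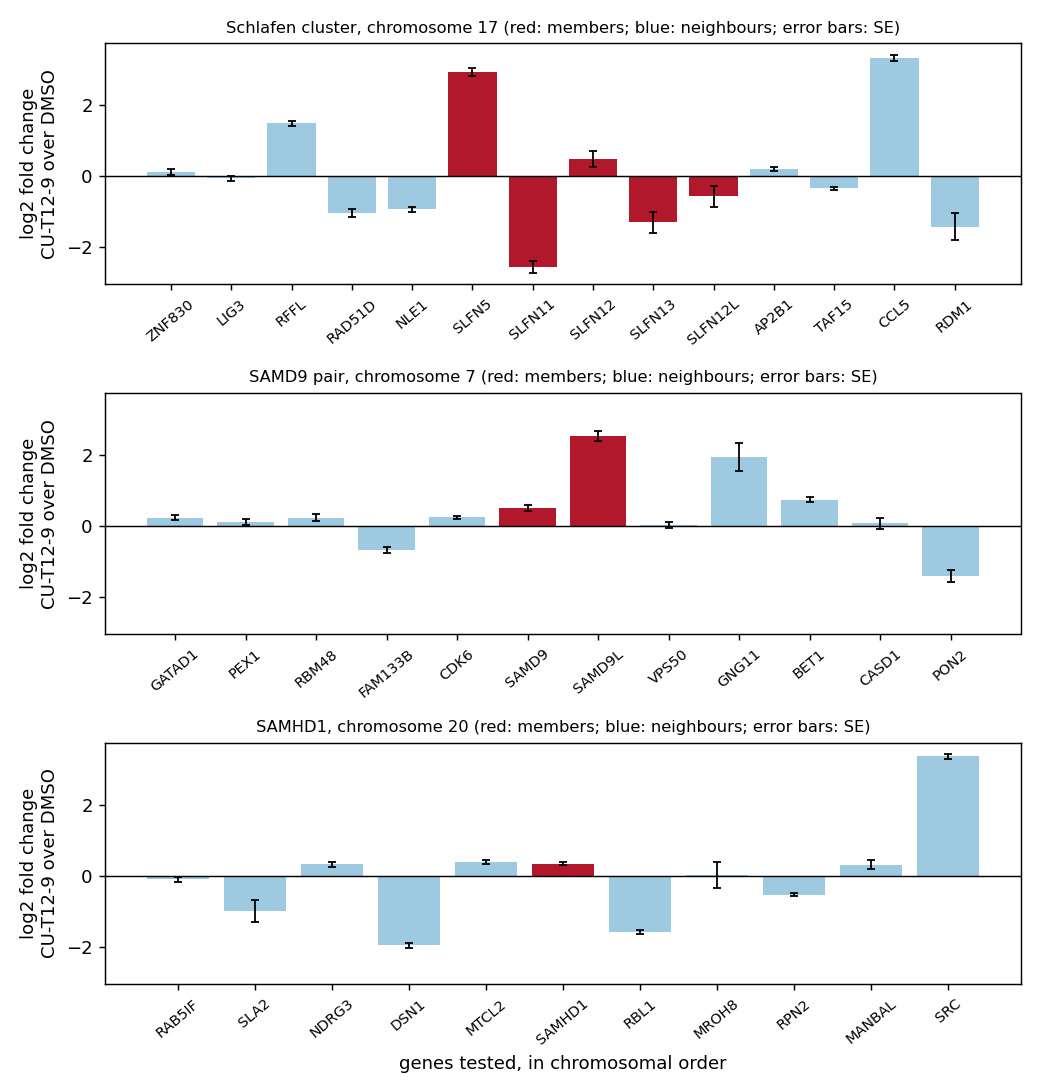
Log2 fold change with its SE for the members (red) and the 5 nearest tested protein-coding genes on each side (blue), in chromosomal order; genes with too few reads and 1 further neighbour of the Schlafen cluster are not drawn. SLFN5 at 2.94 and SLFN11 at -2.56 are adjacent, and SAMD9L at 2.53 lies between SAMD9 at 0.51 and VPS50 at 0.03.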

How the data were processed

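For each of 4 libraries, the authors deposited raw read counts, 1 row for each symbol. Per the submitters' processing notes, FastQC 0.11.7, TopHat2 and featureCounts 1.5.2 were used with GRCh37. No source used here gives the annotation, the strand setting or the treatment of reads with several places, so rows of near-identical or overlapping genes are uncertain.

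From these counts, edgeR 4.0.16 in R 4.3.3 was run with filterByExpr, TMM scaling and the quasi-likelihood test, with group as the only term. P-values were Benjamini-Hochberg adjusted over 14018 genes (threshold 0.05), and each SE was derived from the log2 fold change and its F statistic. The biological coefficient of variation was 5.00%. The call was tested on simulated data. DESeq2 1.42.0, limma 3.58.1, other scalings and filters, left-out libraries and a replicate block were alternatives. Chi-square per degree of freedom was 6.99 in the CU-T12-9 pair and 2.42 in the DMSO pair, so no libraries were merged.

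Members and lists were chosen with earlier results of these data known. Named genes were the members, up to 4 called genes of largest absolute change in each list, listed genes of direct bearing on a member, the 2 genes of nearest profile to each member, and the 5 nearest tested neighbours on each side of a cluster. SLC29A1, DCK, DDB1, APOBEC3B and BST2 fall outside this rule and were named after their values were seen, as were CD33 and FLT3. Exon lengths and 50-base words came from GENCODE 29 and promoter windows from RefSeq, both on GRCh38 and not the build of the counts. Some genes that the rule names are not reported here, and protein sequences were not used here.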

Additional observations from a re-analysis of the deposited data

How the results depend on the processing

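Against a null of 2-fold, 1791 genes were called in place of 9135, and 3 of the 8 members (SLFN5, SAMD9L and SLFN11) in place of 6. SAMD9, SAMHD1 and SLFN13 kept their log2 fold changes of 0.51, 0.34 and -1.30 and lost their calls (edgeR adjusted p = 1 for SAMD9 and SAMHD1, and 0.35 for SLFN13); this null asks for a larger change by construction. SLFN12 gained a call with no filter on low counts (0.48, edgeR adjusted p = 0.021) and with the replicate number as a block (0.49, edgeR adjusted p = 0.0127). The cause was not tested. Deviations of replicate 1 from the group means correlated at 0.00795 across genes between the groups, and the block called 9143 genes. Whether the replicate numbers mark a shared culture or day is not stated, and a correlation across genes cannot settle it. With 1 library left out, SLFN12 ranged from 0.23 to 0.76 (edgeR adjusted p 1.16e-05 to 0.348), and the lone library of a group is then assumed to vary like the other group. No member changed direction under any alternative run. Other scalings, filters and tests called between 7574 and 9520 genes, and left-out libraries between 7615 and 9908. Depth limits SLFN12L and SLFN13 most, with 14 to 19 reads a library in CU-T12-9 and 27 to 51 in DMSO.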

Other observations

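The tested genes whose profile over the 4 libraries lay nearest to each member, by the root mean square difference of centred log2 CPM among 12328 non-member genes of at least 1 CPM, were as follows. SLFN5 lay nearest to EMP2 (0.0341) and CHI3L1 (0.0441), and 10 genes lay within 0.1 of it. SAMD9L lay nearest to PRODH (0.0293) and CD70 (0.0451), and 24 genes lay within 0.1. SLFN11 lay nearest to CCDC150 (0.0764) and PACSIN3 (0.0848), which were the 2 genes within 0.1. SLFN13 lay nearest to ROBO3 (0.0145) and PPM1E (0.0506), with 22 genes within 0.1, and SLFN12 to RP1-266L20.2 (0.0454) and C21orf62 (0.0506), with 17. SLFN12L lay nearest to DCAF4 and ZNF487, SAMD9 to VAMP4 and PTBP3, and SAMHD1 to CBR4, with 543, 810 and 1636 genes within 0.1 of SLFN12L, SAMD9 and SAMHD1. With 2 libraries a group, this measure mainly reflects the size of the change.

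The promoter windows of SAMHD1, SLFN12, SAMD9, SLFN12L and SAMD9L held 22, 13, 4, 2 and 0 CpG dinucleotides, against a median of 14 over all windows.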
